A study of Homo sapiens with 4 samples.

Results

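A set of 10 genes of angiogenic signalling, out of 58174 genes in the deposited table, were followed in irradiated and unirradiated pancreatic cancer cells. They were chosen by gene name: VEGFA, VEGFB, VEGFC, PGF, ANGPTL4, PDGFA, PDGFB, FGF2, NRP1 and THBS1, and all 10 were found. The RNA came from 2 established human lines of pancreatic cancer, SW1990 and PANC-1, either unirradiated or exposed to 10 Gy of X-rays. There were 4 libraries, 1 for each line and treatment, and each line was grown in its own medium. In the study these libraries served to find gene categories enriched among transcripts changed by radiation. The time between radiation and RNA collection is not given in the sources used here. The libraries held 17851815 (SW1990, unirradiated), 18305682 (SW1990, irradiated), 23323266 (PANC-1, unirradiated) and 20026595 (PANC-1, irradiated) reads on genes. With 1 library per condition no spread between replicates can be estimated for radiation within a line. Intervals given for read counts therefore cover counting error only. A level is a mean over a whole culture, so that fewer cells with a transcript and less transcript per cell cannot be told apart.

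Blood vessels grow when ligands of the VEGF family bind receptor tyrosine kinases on endothelial cells. VEGFA is the main ligand for KDR and FLT1, PGF and VEGFB bind FLT1, and VEGFC acts through FLT4 on lymphatic vessels. NRP1 is a co-receptor that holds VEGFA at its receptor and also binds class 3 semaphorins. PDGFA and PDGFB encode the chains of dimeric growth factors that act on mesenchymal cells and pericytes, and FGF2 is a heparin-binding mitogen. ANGPTL4 is a secreted inhibitor of lipoprotein lipase that hypoxia induces, and THBS1 encodes thrombospondin 1, a matrix glycoprotein that restrains vessel growth. Tumor cells of epithelial origin commonly secrete these ligands without carrying all of their receptors.

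The VEGF family was expressed mainly as VEGFA and VEGFB, and both were more abundant in PANC-1 cells. VEGFA, on chromosome 6 from 43770184 to 43786487 (GRCh38, plus strand), had 606 reads without and 447 with radiation in SW1990 cells and 3170 and 1641 reads in PANC-1 cells. Its levels in the same order were 9.45, 7.19, 40.9 and 19.7 FPKM, a unit scaled to transcript length and sequencing depth. Both PANC-1 libraries stood above both SW1990 libraries, and in each line the irradiated library was the lower one. VEGFB (chromosome 11, 64234538 to 64238793) had 154 and 166 reads in SW1990 cells and 1000 and 750 reads in PANC-1 cells, or 5.81, 6.04, 27.9 and 24.7 FPKM. The lymphatic ligand VEGFC (chromosome 4, 176683538 to 176792727) had 0 reads in both SW1990 libraries and 145 and 106 reads in PANC-1 cells, or 2.43 and 2.05 FPKM. A count of 0 allows up to 3 reads, which is 0.157 CPM (TMM-scaled counts per library size) in the unirradiated and 0.158 CPM in the irradiated SW1990 library. PGF, placental growth factor (chromosome 14, 74941834 to 74955784), was scarce in every library. It had 33 and 8 reads in SW1990 cells and 22 and 55 reads in PANC-1 cells, and reached 1 FPKM only in irradiated PANC-1 cells (1.45 FPKM).

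Of the PDGF chains, PDGFB was the more abundant in all 4 libraries. PDGFB (chromosome 22, 39223359 to 39244751) had 285 and 355 reads in SW1990 cells and 2204 and 2147 reads in PANC-1 cells, or 4.92, 6.11, 23.7 and 25.1 FPKM. PDGFA (chromosome 7, 497258 to 520296) had 76 reads in each SW1990 library and 353 and 313 reads in PANC-1 cells, or 1.88, 1.75, 6.18 and 6.31 FPKM. PDGFB made up 72.3% and 77.8% of the summed FPKM of the pair in SW1990 cells and 79.3% and 79.9% in PANC-1 cells. FGF2 (chromosome 4, 122826708 to 122898236) differed least between the lines among the genes above 1 FPKM in all libraries. It had 274 and 354 reads in SW1990 cells and 468 and 485 reads in PANC-1 cells, or 2.75, 3.70, 3.13 and 4.43 FPKM. Its exons share 804 bases with those of NUDT6 on the opposite strand, a gene with 52 to 123 reads per library, and the sources used here do not say whether reads were counted by strand. ANGPTL4 (chromosome 19, 8363289 to 8374373) had 136 and 158 reads in SW1990 cells and 1558 and 1005 reads in PANC-1 cells, or 4.25, 5.42, 34.5 and 26.5 FPKM. It was the most abundant of the 8 ligands in irradiated PANC-1 cells and came second to VEGFA in the unirradiated ones.

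The co-receptor NRP1 (chromosome 10, 33177492 to 33336262) had 735 and 1189 reads in SW1990 cells and 3523 and 2408 reads in PANC-1 cells, or 10.9, 15.7, 30.1 and 23.3 FPKM. Radiation went with more NRP1 reads in one line and fewer in the other, so that the gap between the lines was narrower in the irradiated libraries. The inhibitor THBS1 (chromosome 15, 39581079 to 39599466) was more abundant in both SW1990 libraries. It had 16659 and 16780 reads in SW1990 cells and 2401 and 2798 reads in PANC-1 cells, or 118, 114, 12.2 and 15.8 FPKM. By level it ranked 426 and 425 among all genes in the SW1990 libraries and 5751 and 4807 in the PANC-1 libraries. Exons of FSIP1 on the opposite strand share 448 bases with THBS1, and FSIP1 had 7 to 48 reads.

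**Figure D1:**
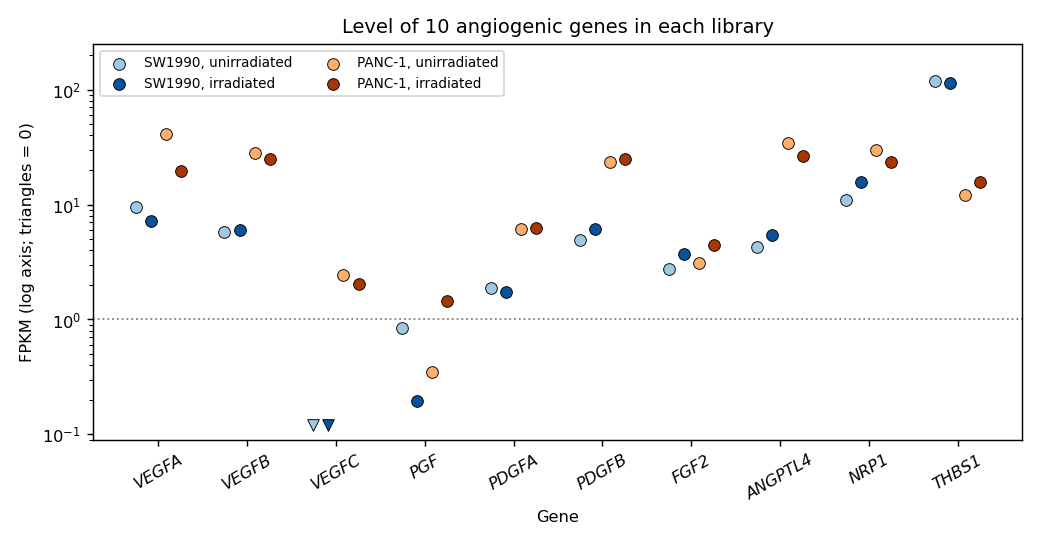
Level of each gene (FPKM, log axis) in the 4 libraries, with 1 point per library, triangles for a value of 0 and a dotted line at 1 FPKM. THBS1 is high in SW1990 cells (118 and 114 FPKM), VEGFC is 0 there, and VEGFA, VEGFB, PDGFA, PDGFB, ANGPTL4 and NRP1 are higher in both PANC-1 libraries.

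The lines were compared with a fit over all 4 libraries and 18180 genes in which radiation was a covariate (quasi-likelihood test of edgeR). Of the 10 genes, 8 passed the threshold of 0.05 on the adjusted p-value, 7 lower and 1 higher in SW1990 cells, where 43.6% of all genes tested passed. THBS1 was higher in SW1990 cells by a log2 fold change of 2.80 ± 0.16 (SE, 2 libraries per line, edgeR adjusted p = 0.00103). PDGFB was lower there, with a log2 fold change of -2.67 ± 0.16 (edgeR adjusted p = 0.0011), as was ANGPTL4 with -2.98 ± 0.25 (adjusted p = 0.00204). VEGFA, VEGFB and PDGFA were lower, with log2 fold changes of -2.03, -2.33 and -2.02, with SEs of 0.17, 0.21 and 0.26. Their edgeR adjusted p-values were 0.00209, 0.0024 and 0.00564. VEGFC, with 0 reads in SW1990 cells, passed as well (edgeR adjusted p = 0.00457). Against a floor of 3 reads per library it was at least 43-fold higher in PANC-1 cells without and at least 34.2-fold higher with radiation.

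NRP1 passed with a smaller difference of -1.53 ± 0.30 (edgeR adjusted p = 0.0176). Without the unirradiated PANC-1 library and with no radiation term the difference was -1.28 and missed the threshold. That fit holds 1 PANC-1 library, so that its spread comes from the SW1990 libraries alone. With no radiation term and all 4 libraries NRP1 passed (edgeR adjusted p = 0.00793). By TMM-scaled counts NRP1 was 4.27-fold higher in PANC-1 than in SW1990 cells among the unirradiated libraries and 1.96-fold higher among the irradiated ones. FGF2 did not pass, with a log2 difference of -0.51 ± 0.20 (edgeR adjusted p = 0.102), nor did PGF, with -0.87 ± 0.98 (adjusted p = 0.512). For PGF the order of the lines changed with treatment: the log2 ratio of SW1990 to PANC-1 cells was 0.75 (95% counting interval -0.07 to 1.60) without radiation and -2.73 (-4.02 to -1.66) with it. The median line difference of the 10 genes was -2.02, and the same with VEGFC set to its bound. Over all 18180 genes in this fit the median was -0.003, and of those that passed 3890 were higher and 4031 lower in SW1990 cells. The line and its culture medium cannot be told apart. The 2 libraries of a line differ in treatment, so the p-values rest on how far the line difference varied between treatments. The fit also shares information on spread over all genes. The p-values do not measure a spread between replicate cultures.

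Among the genes with reads in both lines, ANGPTL4 had the largest fold difference in favour of PANC-1 cells in the fit of 4 libraries. Among the irradiated libraries alone PGF differed more (6.66-fold against 6.16-fold). Sequences upstream of the transcript start are shown for ANGPTL4, for VEGFC, without reads in SW1990 cells, and for THBS1, the gene that passed in favour of SW1990 cells. They are RefSeq sequences on GRCh38.p14, 5′ to 3′ on the strand of the gene, and end 10 bases before the RefSeq start. That start differs from the gene boundary in the deposited table for ANGPTL4, where it lies inside the gene, and for VEGFC, where it lies upstream of it. RefSeq promoter entries were matched for 7 of the 10 genes, and those of VEGFA, PDGFB and NRP1 were not matched. Capitals mark 3 motifs searched on both strands in the 250 bases before the start: the GC box GGGCGG, the hypoxia response core ACGTG and the TATA box TATAAA. Of 35116 human promoter windows of this length, 42.6% hold the GC box, 18.5% the hypoxia response core and 10.7% the TATA box. No capitals in the 3 sequences belong to overlapping motifs.
VEGFC (chr4:176792933-176793172, minus strand): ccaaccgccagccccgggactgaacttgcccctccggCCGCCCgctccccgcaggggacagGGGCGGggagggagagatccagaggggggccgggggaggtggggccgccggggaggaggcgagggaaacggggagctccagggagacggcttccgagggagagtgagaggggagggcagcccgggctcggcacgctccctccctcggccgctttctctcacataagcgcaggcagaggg
ANGPTL4 (chr19:8363905-8364144, plus strand): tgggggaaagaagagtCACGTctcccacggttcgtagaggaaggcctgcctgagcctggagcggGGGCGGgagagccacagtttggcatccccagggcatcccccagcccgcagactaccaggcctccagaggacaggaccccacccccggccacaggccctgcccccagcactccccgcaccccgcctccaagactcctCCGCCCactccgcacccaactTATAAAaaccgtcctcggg
THBS1 (chr15:39580829-39581068, plus strand): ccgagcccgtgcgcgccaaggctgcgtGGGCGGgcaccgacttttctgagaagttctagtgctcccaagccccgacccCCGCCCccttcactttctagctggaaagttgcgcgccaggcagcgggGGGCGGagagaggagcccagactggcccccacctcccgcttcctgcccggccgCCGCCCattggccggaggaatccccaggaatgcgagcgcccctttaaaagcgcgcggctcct
All 7 matched genes had at least 1 GC box, with 2 in VEGFC and in ANGPTL4 and 4 in THBS1. ANGPTL4 alone among the 7 held the hypoxia response core, 234 bases before the start, and the TATA box, 29 bases before it. A match of letters describes the window and does not show that a factor binds there.

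Radiation was then compared within each line. A gene was counted as past 2-fold when its TMM-scaled counts differed by more than 2-fold and its FPKM was at least 1 in either library of the pair. In SW1990 cells 0 of the 8 genes that met the FPKM limit were past 2-fold, against 9.52% of 15731 genes. In PANC-1 cells 1 of 10 was, PGF, against 9.15% of 15159 genes. PGF had 0.346 FPKM without and 1.45 FPKM with radiation there, so that it met the limit only through the library where it was higher. In SW1990 cells, at 0.846 and 0.194 FPKM, the same limit left it out. Its place in the count therefore rests on its own change. The median log2 fold change was 0.18 over the 8 genes in SW1990 cells, where 7 were higher and 1 lower, and -0.16 over the 10 genes in PANC-1 cells, where 4 were higher and 6 lower. Over all genes tested the medians were 0.02 and -0.01, with 8331 higher in SW1990 and 7437 higher in PANC-1 cells. In SW1990 cells PDGFA and THBS1 turned from just above 0 to -0.04 and -0.03 with total counts and to -0.11 and -0.04 by FPKM. The tally in SW1990 cells was then 5 higher and 3 lower on either scale (medians 0.13 and 0.18), while over all genes the medians were -0.04 and -0.03. In PANC-1 cells PDGFA turned from -0.04 to 0.05 with total counts and 0.03 by FPKM, which gave 5 higher and 5 lower (medians -0.07 and -0.08, beside 0.07 over all genes on both scales).

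VEGFA was lower after radiation in both lines. In SW1990 cells the irradiated library held 74.6% of the unirradiated level, a log2 fold change of -0.42 (95% counting interval -0.60 to -0.24), and in PANC-1 cells 57%, a log2 fold change of -0.81 (-0.90 to -0.73). By FPKM the irradiated libraries held 76.1% and 48.1%, so that VEGFA was past 2-fold in PANC-1 cells on that scale only. For VEGFB the log2 fold change of counts was 0.13 (-0.20 to 0.45) in SW1990 cells and -0.28 (-0.42 to -0.14) in PANC-1 cells. For VEGFC it was -0.31 in PANC-1 cells (-0.69 to 0.06), an interval that holds 0. PGF lay on opposite sides of 0, with -2.03 in SW1990 cells (-3.35 to -0.88) and 1.46 in PANC-1 cells (0.72 to 2.24). By FPKM it had -2.07 and 2.04. These PGF values rest on 8 to 55 reads, and in SW1990 cells the gene stayed under the FPKM limit.

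PDGFB was higher in both irradiated libraries, by less than 2-fold, and the intervals of PDGFA held 0. The log2 fold change of PDGFB was 0.33 in SW1990 cells (0.10 to 0.56) and 0.10 in PANC-1 cells (0.01 to 0.19), and that of PDGFA was 0.02 (-0.46 to 0.50) and -0.04 (-0.26 to 0.19). FGF2 was higher in both irradiated libraries, with 0.39 in SW1990 cells (0.15 to 0.62) and 0.19 in PANC-1 cells (0.00 to 0.38). From the FPKM values of PANC-1 cells it was 0.50. ANGPTL4, the hypoxia-induced lipase inhibitor, had 0.23 in SW1990 cells (-0.11 to 0.57) and -0.49 in PANC-1 cells (-0.61 to -0.38). Irradiated SW1990 cells held 164% of the unirradiated NRP1 level (log2 fold change 0.71, 0.58 to 0.85), and irradiated PANC-1 cells held 75.2% (-0.41, -0.49 to -0.34). THBS1 had 0.03 in SW1990 cells (-0.00 to 0.06), which was -0.03 with libraries scaled by total counts, and 0.36 in PANC-1 cells (0.28 to 0.44).

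Across both lines the fit of 4 libraries with the line as a covariate asked which genes differed in the same direction in SW1990 and PANC-1 cells. By edgeR's test 0 of the 10 genes passed after adjustment, as did 0% of the 18180 genes tested. Before adjustment 1 of the 10 genes and 833 of all genes had p under 0.05. That gene was VEGFA, with a log2 fold change of -0.62 ± 0.17 (SE, edgeR unadjusted p = 0.0162, adjusted p = 0.936), lower in 2 of 2 pairs. The Wald test of DESeq2 called 39 of all genes and limma called 1, and neither called any of the 10 genes. This fit has 1 residual degree of freedom and a common coefficient of variation of 0.218.

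The makeup of the VEGF family differed with line and treatment. The 4 ligands VEGFA, VEGFB, VEGFC and PGF came to 16.1 FPKM without and 13.4 FPKM with radiation in SW1990 cells and to 71.6 and 47.8 FPKM in PANC-1 cells. VEGFA made up 58.7% and 53.6% of this sum in SW1990 cells and 57.1% and 41.1% in PANC-1 cells, so that VEGFB, at 51.5%, was the larger part in the irradiated PANC-1 library alone. This order rests on FPKM, by which irradiated PANC-1 cells held 48.1% of the VEGFA and 88.3% of the VEGFB level, against 57% and 82.5% by scaled counts. In PANC-1 cells VEGFC made up 3.39% and 4.28%, while its part in SW1990 cells was 0%. PGF took 5.25% in unirradiated SW1990 cells and between 0.483% and 3.04% in the other libraries. Set against the inhibitor, THBS1 was 12.4 and 15.9 times the FPKM of VEGFA in SW1990 cells and 0.297 and 0.801 times in PANC-1 cells. The 8 ligands together came to 29.9 and 30.4 FPKM in SW1990 cells and 139 and 110 FPKM in PANC-1 cells. In both PANC-1 libraries the ligands outweighed THBS1, 11.4-fold without and 6.99-fold with radiation, and in both SW1990 libraries THBS1 outweighed the ligands, 3.93-fold and 3.75-fold. The ratios set these ligands against THBS1 only and leave out other ligands and inhibitors. The list of 20 further angiogenesis inhibitors came to 178 and 214 FPKM in SW1990 cells and 280 and 352 FPKM in PANC-1 cells. The list of 20 other ligands came to 60.2 and 74.6 FPKM in SW1990 cells and 588 and 421 FPKM in PANC-1 cells. All of these are sums of transcript levels and carry no replicate error.

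For the 7 genes that reached 5 FPKM in some library, the gene with the most similar profile over the 4 libraries was looked up among 11413 genes, by the root mean square distance of centred log2(FPKM + 1) values. The nearest gene to VEGFA was JUN, a subunit of the AP-1 transcription factor, at a distance of 0.101, with 19.4 and 17.2 FPKM in SW1990 cells and 90.1 and 37.9 FPKM in PANC-1 cells. No gene lay within 0.1 of VEGFA, while 64 genes lay within 0.1 of PDGFA. The nearest genes to the others were SPATS2L for VEGFB (0.034), SYNE3 for ANGPTL4 (0.044), CUL4B for PDGFA (0.023), IL6ST for PDGFB (0.014), VAMP2 for NRP1 (0.04) and ZNRF3 for THBS1 (0.046). SYNE3 had 0.16 and 0.494 FPKM in SW1990 cells and 6.81 and 4.89 FPKM in PANC-1 cells. At levels under 1 FPKM the added 1 shrinks fold differences, so its fold differences are not those of ANGPTL4. With 4 libraries such likeness is a description of these profiles only.

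The remaining genes of the pathway were taken from 6 lists with 105 genes. In SW1990 cells 5 of the 70 genes that met the FPKM limit were past 2-fold, 4 higher and 1 lower, and in PANC-1 cells 6 of 64, 5 higher and 1 lower, beside 9.52% and 9.15% of all genes. Of the higher genes, only INSIG2 in SW1990 and FGFR4 in PANC-1 cells reached 1 FPKM without radiation. The others (MDK, SERPINF1 and PLAT, and ANG, FGFR3, SPARC and SEMA3F) met the limit only through the irradiated library. The balance of higher and lower genes therefore says nothing of a direction. Between the lines 58 of the 86 genes kept in the edgeR fit passed after adjustment, with 23 higher and 35 lower in SW1990 cells, where 43.6% of all genes passed. For radiation across both lines 0 of the 86 passed in edgeR's test, and 9 had an unadjusted p-value under 0.05, beside 833 of all 18180 genes. DESeq2 called 0 of the 46 genes it gave an adjusted p-value, and 5 of the 86 had an unadjusted p-value under 0.05, beside 427 of 18180. With limma 0 of 79 passed after and 6 before adjustment, beside 1055 of 17662 before it.

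Among 20 other angiogenic ligands, 10 of 13 tested differed between the lines (43.6% of all genes), 2 higher and 8 lower in SW1990 cells. By mean FPKM over the 4 libraries the most abundant were the matricellular proteins CYR61 and CTGF and the vasodilator peptide gene ADM. The order differed in SW1990 cells. There EFNB2 (11.4 and 18.5 FPKM), EFNA1 (11.5 and 15.3 FPKM) and EGFL7 (7.23 and 9.14 FPKM) stood above ADM. CYR61 had 13.9 and 15.5 FPKM in SW1990 cells and 444 and 280 FPKM in PANC-1 cells (line log2 fold change -4.73, edgeR adjusted p = 0.0011). CTGF had 11.2, 9.06, 70 and 54.2 FPKM in the same order (line log2 fold change -2.78, edgeR adjusted p = 0.000974), and ADM had 1.39, 2.3, 25.5 and 30.9 FPKM (-4.05, edgeR adjusted p = 0.000991). With radiation ANG, the ribonuclease angiogenin, was past 2-fold in PANC-1 cells, from 24 to 61 reads (log2 fold change 1.48, against 0.18 in SW1990 cells). The heparin-binding growth factor gene MDK was past 2-fold in SW1990 cells by counts, from 20 to 40 reads (1.02), and not by FPKM (0.95), and had a log2 fold change of 0.26 in PANC-1 cells. Both of these rest on low counts.

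Of 20 receptors and co-receptors, 9 of 15 tested differed between the lines (43.6% of all genes), 6 higher and 3 lower in SW1990 cells. EPHA2, an ephrin receptor, was the most abundant in all 4 libraries with 109, 136, 162 and 134 FPKM. By mean FPKM over the libraries the heparan sulfate proteoglycan SDC4 and FGFR1, a receptor for FGF2, came next. In SW1990 cells CD47 (35.4 and 44.7 FPKM) and GPC1 (28.8 and 32.2 FPKM) stood above FGFR1. FGFR1 had 27.5 and 21.9 FPKM in SW1990 cells and 36.4 and 31.5 FPKM in PANC-1 cells (line log2 fold change -0.73, edgeR adjusted p = 0.0155). The VEGF receptors were chosen for mention after their values were seen. KDR had 0 reads in both SW1990 libraries and 999 and 746 reads in PANC-1 cells, at least 296-fold and 241-fold higher there. FLT1 had 47 and 79 reads in SW1990 cells and 0 and 2 reads in PANC-1 cells, under 1 FPKM in each library, and FLT4, the receptor of VEGFC, had 0 reads in all 4. With radiation the FGF receptors FGFR3 and FGFR4 were past 2-fold in PANC-1 cells, from 39 to 138 reads (log2 fold change 1.96) and from 72 to 151 reads (1.21). In SW1990 cells their log2 fold changes were 0.71 and 0.90. PDGFRB, the receptor for PDGFB, had 129 and 63 reads in SW1990 cells (log2 fold change -1.02, or -0.59 by FPKM, which is not past 2-fold) and 0 and 3 reads in PANC-1 cells.

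Of 20 angiogenesis inhibitors, 14 of 17 tested differed between the lines (43.6% of all genes), 4 higher and 10 lower in SW1990 cells. COL18A1, whose protein releases endostatin, had 0.438 and 0.651 FPKM in SW1990 cells and 78.9 and 102 FPKM in PANC-1 cells (line log2 fold change -7.44, edgeR adjusted p = 0.00076). The metalloproteinase inhibitor TIMP1 had 55.7, 78.4, 76.7 and 117 FPKM, and TIMP2 had 18.7, 18.1, 28.1 and 37.4 FPKM. In SW1990 cells SEMA3F (36.3 and 32.6 FPKM) and TIMP3 (21.6 and 33.9 FPKM) stood above TIMP2. Both were among the 4 genes higher in that line, with log2 fold changes of 4.04 and 6.38 (edgeR adjusted p = 0.00286 and 0.00076). In PANC-1 cells SEMA3C (46 and 40.2 FPKM) stood above TIMP2. With radiation SERPINF1, which encodes pigment epithelium-derived factor, went from 0 to 30 reads in SW1990 cells, at least 10.1-fold, and from 14 to 18 reads in PANC-1 cells. The matrix protein SPARC went from 20 to 68 reads (log2 fold change 1.90) and the semaphorin SEMA3F, a ligand of neuropilins, from 93 to 211 reads (1.32) in PANC-1 cells. In SW1990 cells their log2 fold changes were -0.03 and -0.08.

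Genes for the processing of ligands and their release from the matrix numbered 14, and 5 of 11 tested differed between the lines, a share near the 43.6% of all genes, 3 higher and 2 lower in SW1990 cells. PLAU, urokinase, had 9.14 and 11 FPKM in SW1990 cells and 347 and 398 FPKM in PANC-1 cells (line log2 fold change -5.39, edgeR adjusted p = 0.000804). HSPG2, the matrix proteoglycan perlecan, had 26.7, 39.3, 30.3 and 38 FPKM, and the proprotein convertase PCSK7 had 26.7, 36.6, 19.5 and 22.6 FPKM. PLAT, tissue plasminogen activator, was past 2-fold with radiation in SW1990 cells, from 41 to 138 reads (log2 fold change 1.77), and went from 44 to 36 reads in PANC-1 cells (-0.15).

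VEGFA and ANGPTL4 are known targets of the hypoxia-inducible factors, so 11 genes of hypoxia sensing and 20 hypoxia-induced genes were also read. Of the sensing genes, 0 of 10 in SW1990 and 0 of 8 in PANC-1 cells were past 2-fold with radiation, beside 9.52% and 9.15% of all genes. HIF1A, the regulated subunit, had 30.5 and 34.1 FPKM in SW1990 cells and 28.8 and 23.6 FPKM in PANC-1 cells. EGLN2, a prolyl hydroxylase that marks it for decay, had 20.9, 17.9, 22.2 and 26.6 FPKM, and the coactivator-binding gene CITED2 had 12.6, 19.6, 18.5 and 23.9 FPKM. Of the hypoxia-induced genes, 16 of 18 were higher and 2 lower after radiation in SW1990 cells (median log2 fold change 0.30), and 8 of 15 were higher and 7 lower in PANC-1 cells (median 0.05). Over all genes 8331 of 15731 and 7437 of 15159 were higher. Over the 6 lists together, this one included, 53 of 70 genes were higher in SW1990 cells and 41 of 64 in PANC-1 cells. The tilt in SW1990 cells was thus not particular to the hypoxia-induced genes. With total counts and by FPKM these hypoxia-induced genes were 14 higher and 4 lower in SW1990 cells (medians 0.25 and 0.20). In PANC-1 cells they were 9 higher and 6 lower (medians 0.13 and 0.24). Past 2-fold by counts was INSIG2, a regulator of sterol synthesis, from 94 to 201 reads in SW1990 cells (1.11), but its FPKM values of 3.94 and 4.29 gave 0.12. Also past 2-fold was DDIT4, an inhibitor of mTORC1 signalling, from 7523 to 2098 reads in PANC-1 cells (-1.70). In the other line of each, DDIT4 had 0.22 in SW1990 cells and INSIG2 had -0.19 in PANC-1 cells. The glycolytic enzymes PGK1 and LDHA had log2 fold changes of 0.25 and 0.57 in SW1990 cells and of 0.25 and 0.22 in PANC-1 cells. The glucose transporter SLC2A1 had 127 and 160 FPKM in SW1990 cells and 16.1 and 13.4 FPKM in PANC-1 cells (line log2 fold change 3.19, edgeR adjusted p = 0.00145). Of the hypoxia-induced genes tested between the lines, 14 of 20 differed (43.6% of all genes), 6 higher and 8 lower in SW1990 cells.

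Markers of other cell types were read beside these results. Of 6 endothelial markers, ESAM alone reached 1 FPKM (1.70, 1.66, 4.03 and 5.45 FPKM). PECAM1 had 0 to 2 reads, CDH5 0 to 8 reads and CLDN5 0 reads. VWF had 14 and 50 reads in SW1990 cells and 2 and 4 reads in PANC-1 cells, and ROBO4 had 0 reads in SW1990 cells and 42 and 18 in PANC-1 cells. Of 6 markers of fibroblasts and pericytes, COL1A1 alone reached 1 FPKM, with 1.40, 2.85, 8.44 and 11 FPKM, and DCN and COL1A2 had 0 reads. COL3A1 had 0 reads in SW1990 cells but 80 and 77 in PANC-1 cells, RGS5 had 26 to 41 reads in each library, and LUM had 0 to 2 reads. Of 5 leukocyte markers, CD68 reached 18.8 and 13.9 FPKM in PANC-1 cells and CD14 had 0.923, 1.31, 0.468 and 1.09 FPKM. CD14 was past 2-fold with radiation in PANC-1 cells, from 26 to 52 reads (log2 fold change 1.14), and had 39 and 56 reads in SW1990 cells (0.54). PTPRC and LYZ had 0 to 2 reads, and CD3E had 0 reads. The summed FPKM of these lists was between 1.86 and 5.68, between 1.94 and 12.6 and between 1.77 and 19.4. KRT8, KRT18 and KRT19 led the fourth list, of 7 epithelial and ductal markers, with KRT8 at 1352, 1888, 786 and 851 FPKM. KRT18 had 944, 1062, 468 and 539 FPKM and KRT19 had 224, 306, 146 and 241 FPKM. The keratin KRT7 was far lower, with 5.79, 6.02, 6.35 and 5.02 FPKM. EPCAM and CDH1, the epithelial adhesion genes, had 217 and 140 FPKM in unirradiated SW1990 cells but 2.28 and 0.673 FPKM in unirradiated PANC-1 cells. MUC1 went the other way, with 2 and 3.23 FPKM in SW1990 cells and 6.61 and 13.7 FPKM in PANC-1 cells. Its line log2 fold change was -2.35 (edgeR adjusted p = 0.00364).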

How the data were processed

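The 10 genes and all gene lists were chosen with earlier results of these data known. According to the study's methods and the submitters' processing notes, Trimmomatic 0.36 trimmed the reads, HISAT2 2.0 mapped them to GRCh38 and StringTie 1.3.3b gave expression values. The authors deposited 1 table with a raw count and an FPKM value per gene and library. The tool that made the counts is not given in the sources used here. The labels call the RNA depleted of ribosomal RNA and also name an mRNA library kit, so how transcripts were selected is unclear. Gene coordinates of the 10 genes in the table are those of GENCODE release 29. Rows that name no gene (1089, with 0.453% to 0.635% of a library's counts) entered neither library sizes nor tests, and 27 gene names stored as dates were restored.

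Library sizes were scaled by TMM over genes kept by filterByExpr (edgeR 4.0.16, R 4.3.3). Within a line, fold changes of scaled counts have exact 95% Clopper-Pearson intervals, which cover counting error only, and no test. No fold change is given where a library had 3 reads or fewer. Radiation and line were fitted together over 4 libraries (1 residual degree of freedom) with edgeR's quasi-likelihood test and Benjamini-Hochberg adjustment over all genes. The code of this fit was tested on simulated counts that varied less than these libraries, which says nothing of its power here. DESeq2 1.42.0 and limma 3.58.1, on log2(FPKM + 1), served as alternatives. From each list, genes past 2-fold in either line and up to 3 with the highest mean FPKM are named. Each of the 10 genes that reached 5 FPKM in some library is set beside the gene nearest in profile.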

Additional observations from a re-analysis of the deposited data

Results flagged for a closer look

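PGF and NRP1 had radiation fold changes on opposite sides of 0 in the lines, with both counting intervals off 0. The log2 fold change in SW1990 cells minus that in PANC-1 cells was -3.49 for PGF (95% counting interval -4.81 to -2.16), from 33 and 8 reads in SW1990 cells and 22 and 55 reads in PANC-1 cells. For NRP1 it was 1.12 (0.97 to 1.27). The intervals of these 2 differences are normal approximations from the read counts, unlike the exact intervals of the fold changes within a line. These differences were not tested, because 1 library per line and treatment leaves no spread between replicates for them.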

How the results depend on the processing

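The radiation fit pairs the libraries by cell line, with 2 pairs and 1 residual degree of freedom, and the labels number no replicates. In SW1990 cells the 0 genes past 2-fold became 1 with no filter on FPKM (PGF) and 1 at a 1.5-fold limit (NRP1), and in PANC-1 cells the 1 gene became 2 by FPKM and 2 at a 1.5-fold limit (VEGFA added in both). DESeq2's size factors, total counts, TMM within each pair (chosen after seeing the data) and rows that name no gene left these counts at 0 and 1. The 8 genes that differed between the lines were 8 under each other test, scaling and filter. Leaving out a library, with no radiation term, left 1 library in a line, so that the spread came from the other line alone. Such fits cannot show whether the calls hold. In them the NRP1 line difference was between -1.91 and -1.18. At -1.28, without the unirradiated PANC-1 library, it missed the threshold. The signs of the PGF line difference (-2.15 to 0.10 when a library was left out, highest without the irradiated PANC-1 library) and of its radiation change (0.12 by limma on log2(FPKM + 1)) turned, neither past the threshold. For radiation 0 of the 10 genes passed in all 4 alternatives, and DESeq2 gave 5 of them no adjusted p. The cause of these shifts was not tested. Depth limits PGF and VEGFC, which had at most 55 and 145 reads per library.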
